A study of Homo sapiens with 12 samples.

Results

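The SR-related proteins described here are 8 nuclear factors that carry stretches rich in arginine and serine or work with proteins that do: TRA2A, TRA2B, SRRM1, SRRM2, RBM39, SON, ACIN1 and PNN. Their splicing events were taken by gene name from the deposited table of 721551 exons, introns and splice sites, which holds 494 events of the 8 genes. Of these, 421 had 10 or more reads in all 12 samples, among 340848 such events of all genes. A further filter on level and quality left 87 events of the 8 genes for testing, among 120409 of all genes: 31 exons, 32 introns, 16 alternative acceptor (3′) sites and 8 donor (5′) sites. Reads spliced across the annotated introns of each gene gave a second measure, its level of spliced RNA.

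The RNA came from clones of MEC1, a cell line derived from a patient with chronic lymphocytic leukemia, and was sequenced after poly(A) selection. The 4 groups, with 3 samples each, were WT cells given H3B-8800 at 75 nM for 6 h, WT cells given DMSO for 6 h, SF3B1 K700E cells given H3B-8800 at the same dose and time, and K700E cells given DMSO for 6 h. The K700E clones, named 41, 38 and 15b, carry the SF3B1 changes c.2098A>G and c.2106G>A. The WT samples are named a, b and 34b, and of these 34b alone is labelled as carrying c.2106G>A. Each name occurs once with H3B-8800 and once with DMSO, and whether a and b are separate clones is not given, so p-values measure the spread between these samples. Libraries held 45840233 to 56676172 exon-exon reads, on average 49181530 with H3B-8800 against 53775444 with DMSO in WT, and 47092084 with H3B-8800 against 52991116 with DMSO in K700E. All 8 B cell markers had spliced reads, at a summed 1578 to 2412 reads per 1000000 exon-exon reads (RPM). T and NK cell markers summed to 0.209 to 1.51, with CD3G and NCAM1 at 0, myeloid markers to 0.386 to 1.72, with FCGR1A at 0, and fibroblast and epithelial markers to 18.05 to 29.5.

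SF3B1 is the part of the U2 snRNP that holds the branch point of an intron, and H3B-8800 is a small molecule that binds it and disturbs branch point recognition. TRA2A and TRA2B bind purine-rich stretches of exons and promote their inclusion. SRRM1 and SRRM2 are splicing coactivators, SRRM2 and SON build the nuclear speckles, RBM39 is a relative of U2AF that helps early spliceosome assembly, and ACIN1 and PNN each join RNPS1 and SAP18 in complexes at the exon junction. Several such genes hold poison exons, short exons with an early stop codon whose inclusion sends the transcript to nonsense-mediated decay and so lowers the gene's own output.

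Spliced RNA of 6 of the 8 genes was higher with H3B-8800 than with DMSO, in WT and in K700E cells alike: SRRM1, SON, RBM39, TRA2B, SRRM2 and TRA2A. Against this, 18.5% of the 10182 genes tested were higher in WT and 16.2% in K700E (adjusted p under 0.05, limma with Benjamini-Hochberg adjustment over all genes). The median gene moved by -0.28 (log2) in WT and by -0.22 in K700E, and the median of the 8 genes was 0.81 in WT and 0.71 in K700E. Values are spliced RPM; they depend on the number of introns of a gene and are not compared between genes. In RNA from whole cultures, fewer cells and less RNA per cell cannot be told apart.

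SRRM1 had the largest fold of the 8. Its 3 WT samples with H3B-8800 stood at 711, 760 and 795 RPM, against 263, 300 and 307 with DMSO. In K700E the values were 699, 657 and 637 with H3B-8800 and 271, 246 and 275 with DMSO. The groups were far apart in both genotypes, with a log2 fold change of 1.38 ± 0.08 (SE) in WT (2.61-fold, adjusted p = 2.39e-07) and 1.33 ± 0.08 in K700E (2.52-fold, adjusted p = 8e-07). All 16 SRRM1 introns had a higher RPM with H3B-8800 in both genotypes.

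SON and RBM39 more than doubled. SON stood at 699, 652 and 681 RPM in WT with H3B-8800 and 297, 273 and 293 with DMSO, a 2.36-fold difference (adjusted p = 3.9e-07). K700E samples stood at 649, 568 and 614 with H3B-8800 and 293, 246 and 269 with DMSO (2.27-fold, adjusted p = 1.22e-06). RBM39, also known as the protein that indisulam marks for degradation, stood at 876, 882 and 959 in WT with H3B-8800 and at 385, 402 and 441 with DMSO (2.22-fold, adjusted p = 3.63e-06). Its K700E values were 1076, 833 and 976 with H3B-8800 and 422, 354 and 404 with DMSO (2.44-fold, adjusted p = 3.13e-06). No sample with H3B-8800 overlapped a DMSO sample for either gene, and all 11 SON introns and all 16 RBM39 introns moved the same way.

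Spliced RNA of both TRA2 genes rose. TRA2B stood at 1058, 1023 and 1077 RPM in WT with H3B-8800 and 570, 566 and 544 with DMSO (1.88-fold, adjusted p = 4.18e-07). In K700E it stood at 928, 917 and 968 with H3B-8800 and 508, 493 and 552 with DMSO (1.81-fold, adjusted p = 1.32e-06). Its samples were the most closely grouped of the 8 genes on the log2 scale, with an SE of 0.06. TRA2A stood at 309, 287 and 313 in WT with H3B-8800 and 226, 222 and 218 with DMSO (1.36-fold, adjusted p = 0.00511). Its K700E values were 282, 223 and 213 with H3B-8800 and 214, 167 and 193 with DMSO, where the lowest treated and highest untreated samples overlapped (1.25-fold, adjusted p = 0.0331). Of 7 TRA2A introns, 6 had a higher RPM with H3B-8800 in each genotype. The intron of 176 nt was lower, at a log2 of -0.51 in WT and -0.48 in K700E. The TRA2A call in K700E was lost when only those 6 samples were fitted (adjusted p = 0.128) and without K700E H3B-8800 replicate 1 (log2 0.20, adjusted p = 0.110), K700E DMSO replicate 2 (log2 0.23, adjusted p = 0.126) or K700E DMSO replicate 3 (log2 0.33, adjusted p = 0.0611). Without both samples of clone 34b, an alternative chosen after seeing the data, it stood at an adjusted p of 0.0537 in WT and 0.0625 in K700E.

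SRRM2, the large speckle scaffold, stood at 337, 397 and 388 RPM in WT with H3B-8800 and 200, 228 and 259 with DMSO (1.64-fold, adjusted p = 0.000152). K700E samples stood at 350, 310 and 374 with H3B-8800 and 240, 223 and 233 with DMSO (1.48-fold, adjusted p = 0.000981). All 14 SRRM2 introns had a higher RPM with H3B-8800 in WT, and 13 of 14 in K700E. ACIN1 stood at 194, 227 and 246 in WT with H3B-8800 and 193, 210 and 216 with DMSO, and at 275, 225 and 225 in K700E with H3B-8800 and 230, 204 and 216 with DMSO. Its introns moved both ways, with 7 of 12 higher in WT and 8 of 12 in K700E. PNN stood at 219, 268 and 273 in WT with H3B-8800 and 191, 243 and 232 with DMSO, and at 282, 294 and 256 in K700E with H3B-8800 and 232, 246 and 245 with DMSO. ACIN1 and PNN, the 2 exon junction factors, were not called in either genotype (for ACIN1 adjusted p = 0.429 in WT and 0.259 in K700E, for PNN 0.147 in WT and 0.146 in K700E). When libraries were scaled by the median of ratios, the median gene stood at -0.01 in WT and -0.0043 in K700E, 2978 genes rose and 2984 fell in WT (1888 and 4154 with RPM), and 2691 rose and 2670 fell in K700E (1653 and 3641 with RPM). All 8 genes were then called: ACIN1 at a log2 of 0.37 in both genotypes (adjusted p = 0.0032 in WT, 0.0041 in K700E) and PNN at 0.46 in WT and 0.42 in K700E (adjusted p = 0.0029 and 0.0065). With the sample name as a block, PNN was called in both genotypes (adjusted p = 0.0028 in WT, 0.0025 in K700E). ACIN1 was then called in K700E alone (adjusted p = 0.077 in WT, 0.016 in K700E), and the difference between the genotypes was not called. That fit called 7975 of all 10182 genes in K700E, in either direction, beside 5294 in the main fit. In WT the alternative fits called 4662 to 8391 genes, beside 6042 in the main fit. PNN was also called in WT without WT H3B-8800 replicate 1 (log2 0.29, adjusted p = 0.038) and in K700E with the median over introns (log2 0.26, adjusted p = 0.0498).

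**Figure D1:**
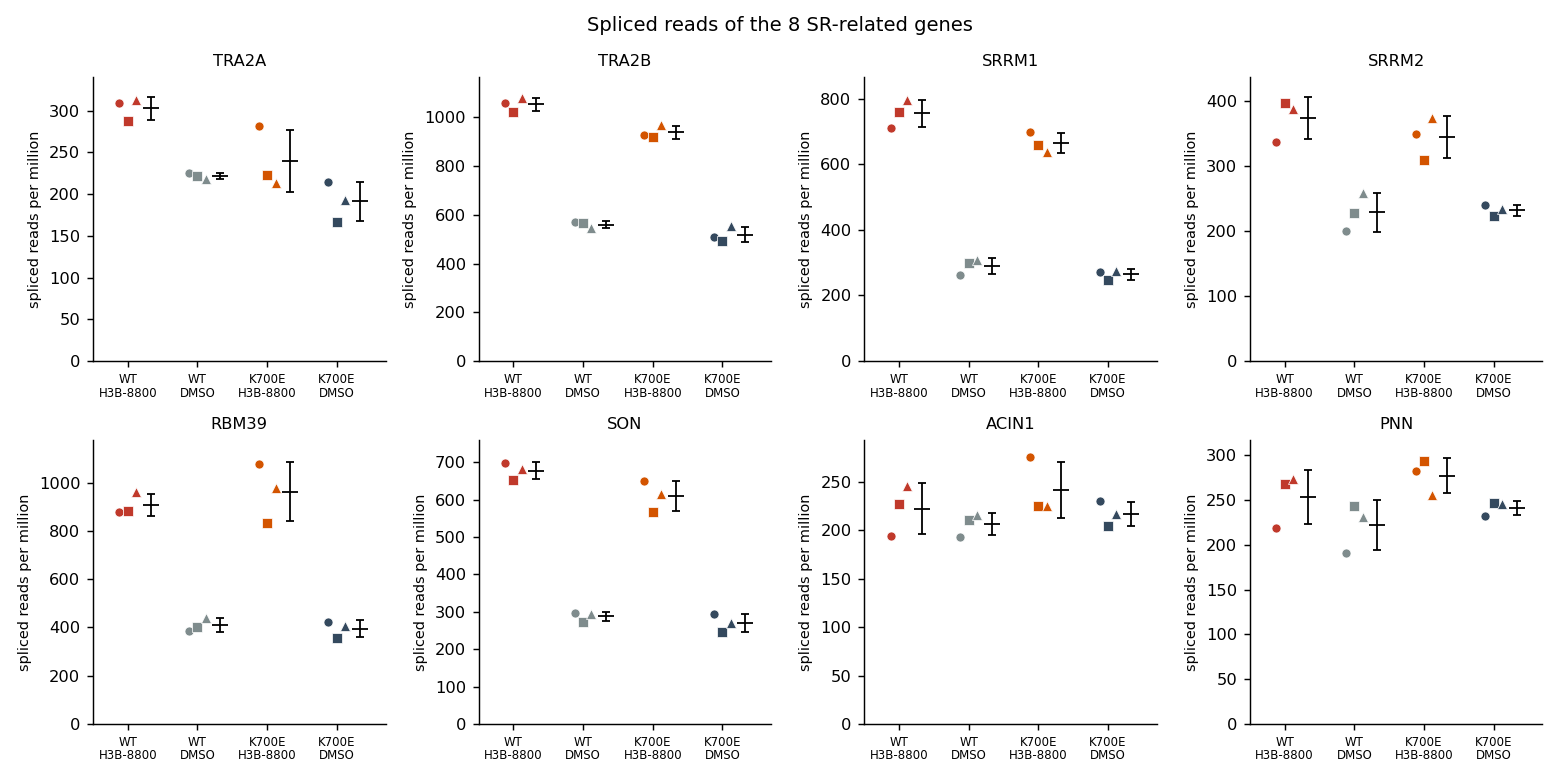
Spliced RPM (y axis, from 0) of the 8 genes in the 4 groups; circles, squares and triangles are replicates 1, 2 and 3, and the black dash and bar are the mean and SD. SRRM1, SON, RBM39 and TRA2B show H3B-8800 samples well above DMSO samples in both genotypes, while ACIN1 samples overlap in both genotypes and PNN samples in WT.

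Related genes moved in both directions. Of 10 classical SR proteins tested, 6 rose and 2 fell in WT, and 7 rose and 2 fell in K700E, with a median log2 of 0.52 in WT and 0.55 in K700E; SRSF4 was highest (1.29 in WT, 1.09 in K700E) and SRSF5 lowest (-1.14 in WT, -0.91 in K700E). Of 34 other SR-related genes, 23 rose and 4 fell in WT and 20 rose and 4 fell in K700E, with medians of 0.54 and 0.40, and SREK1, a regulator of splice site choice, was highest at 1.504 and 1.454. Among 7 exon junction and ASAP/PSAP genes, 4 rose and 2 fell in WT and 4 rose and 1 fell in K700E, with medians of 0.39 and 0.38. With the median of ratios scaling, 8 classical SR proteins rose and 1 fell in each genotype, 28 other SR-related genes rose and 3 fell in WT, 26 rose and 3 fell in K700E, and 4 exon junction genes rose and 0 fell in each. Over the 12 samples, the closest patterns among these 51 candidates by Euclidean distance on centred log2 values were ARGLU1 (distance 0.30) and SRSF3 (0.31) for TRA2B, PRPF4B for SON (0.34) and for RBM39 (0.40), PRPF38B for SRRM1 (0.37), and CCNL2 for ACIN1 (0.33) and PNN (0.44). RBM23 was nearest to SRRM2 (0.45) and THRAP3 to TRA2A (0.48). These distances describe the same libraries and carry no test.

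Between genotypes, none of the 8 genes was called for spliced RPM scaled as above. None passed for K700E against WT in DMSO, where 4.86% of all genes did, and none had an unadjusted p under 0.05 (0 of 8). That share rests on 495 genes, and leaving out 1 library at a time gave 104 (without WT DMSO replicate 2) to 683 (without K700E H3B-8800 replicate 1). For K700E against WT in H3B-8800, 14.2% of all genes and 0 of the 8 were called, and 31.2% of all genes and 3 of the 8 had an unadjusted p under 0.05. These were TRA2A at a log2 of -0.35 (adjusted p = 0.0609), TRA2B at -0.17 (adjusted p = 0.0769) and SRRM1 at -0.18 (adjusted p = 0.133), while the median gene stood at 0.12. TRA2A was called with the median over introns (-0.47, adjusted p = 0.0440) and without K700E H3B-8800 replicate 1 (-0.47, adjusted p = 0.0162), K700E DMSO replicate 1 (-0.35, adjusted p = 0.0449) or K700E DMSO replicate 2 (-0.35, adjusted p = 0.0491). With the median of ratios scaling 4 of the 8 were called lower in K700E: TRA2A at -0.47 (adjusted p = 0.0154), SRRM1 at -0.30 (adjusted p = 0.0218), TRA2B at -0.28 (adjusted p = 0.0335) and SON at -0.27 (adjusted p = 0.0346). The 14.2% above does not apply to that scaling, and its own share over all genes is not given here. Over the alternative fits, 302 to 2149 of all genes were called for this comparison, beside 1448 in the main fit. The interaction, the H3B-8800 effect in K700E minus that in WT, was called for 0.0491% of all genes and for 0 of the 8, again with 0 at an unadjusted p under 0.05.

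Splicing of the 8 genes was then compared event by event. An inclusion level is the percentage of reads that include the exon, keep the intron or use the site, and an event was called at an adjusted p under 0.05 with a difference of 10 or more percentage points. With H3B-8800, 17 of the 87 events were called in WT, against 31.4% of all events tested, and 20 of 87 in K700E, against 30.7%. Both shares of the 8 genes, 19.5% in WT and 23.0% in K700E, were below the shares over all events. Of the 17, 11 exons and 1 alternative 3′ site fell and 1 exon and 4 introns rose; of the 20, 13 exons and 1 alternative 3′ site fell and 1 exon and 5 introns rose. The calls lay in SRRM2, RBM39, TRA2B and ACIN1 in both genotypes, plus SRRM1 in WT, and 16 events were called in both.

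For exons, 11 of 31 fell in WT, beside 39.6% of all tested exons, and 13 of 31 in K700E, beside 38%. The median exon of the 8 genes differed by -5.80 points in WT and -6.75 in K700E, near the medians over all exons of -6.79 and -6.41. For introns, 4 of 32 rose in WT and 5 of 32 in K700E, beside 32% and 31.6% of all tested introns. Their median differences of 1.36 and 1.79 points stood below those of all introns, 4.98 and 5.07, and 25 of the 32 had a mean retention under 10% in all 4 groups.

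**Figure D2:**
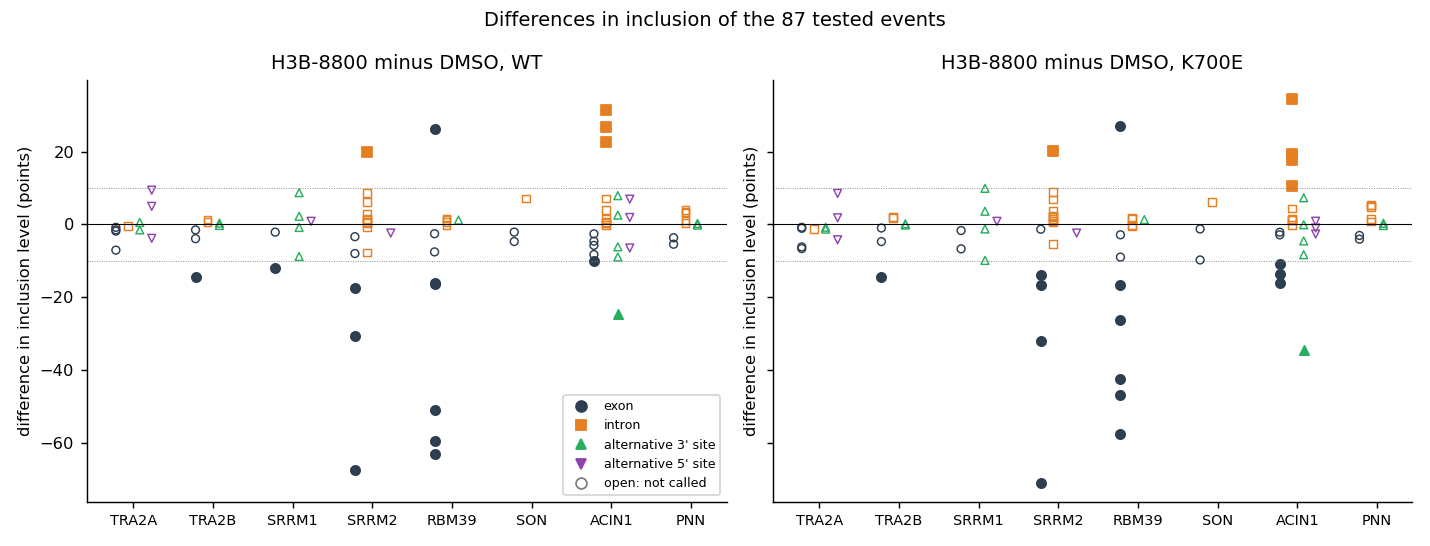
Difference in inclusion level (H3B-8800 minus DMSO, percentage points, y axis) of the 87 tested events by gene (x axis), WT on the left and K700E on the right; symbols mark the event type, filled ones were called, and dotted lines mark 10 points either way. SRRM2, RBM39 and ACIN1, with 16, 13 and 22 of the tested events, hold most calls, and TRA2A, SON and PNN hold none.

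SRRM2 had the exon with the largest difference of the 8 genes. It is a 60-nt event at chr16:2758988-2759047 (hg38, plus strand) that shares its end with an annotated 63-nt coding exon. The annotated exon is shown because the event omits its first 3 bases, given here in capitals (GENCODE v29 transcript sequence).
SRRM2 63-nt exon, chr16:2758985-2759047: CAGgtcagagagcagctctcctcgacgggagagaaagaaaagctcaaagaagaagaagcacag
The exon was included at 27.9%, 35.3% and 30.9% in WT with H3B-8800, against 98.9%, 98.98% and 99.1% with DMSO. In K700E it stood at 29.3%, 26.8% and 27.3% with H3B-8800 and 99.2%, 99.2% and 97.9% with DMSO. It was included in nearly all reads with DMSO and in a minority with H3B-8800, a difference of -67.62 points in WT (adjusted p = 6.68e-09) and of -71.01 points in K700E (adjusted p = 7.18e-09), with at least 2625 reads in each sample. Its length is a multiple of 3, so skipping keeps the reading frame.

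Further SRRM2 exons fell as well. A 273-nt, partly coding exon stood at 47.7%, 55.6% and 52.1% in WT with H3B-8800 and 80.05%, 83.4% and 84.4% with DMSO (-30.81 points, adjusted p = 5.82e-06). K700E samples stood at 49.6%, 47.4% and 46.2% with H3B-8800 and 82.2%, 79.8% and 77.7% with DMSO (-32.21 points, adjusted p = 6.87e-06). A 262-nt exon of noncoding transcripts was nearly lost, at 0.92%, 0.73% and 0.63% in WT with H3B-8800 and 15.7%, 19.8% and 19.4% with DMSO, and at 1.29%, 1.21% and 1.15% in K700E with H3B-8800 and 20.8%, 19.01% and 14.2% with DMSO. A 348-nt exon that shares an end with an annotated exon averaged 0.813% in WT with H3B-8800 and 8.85% with DMSO, and 1.57% in K700E with H3B-8800 and 15.6% with DMSO, which was called in K700E alone (adjusted p = 5.36e-06); the difference between the genotypes was not called.

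Of 10 SRRM2 introns tested, 1 was called. This 138-nt coding intron at chr16:2770466-2770603 was retained at 26.8%, 25.5% and 30.4% in WT with H3B-8800 and 6.65%, 7.59% and 9.0% with DMSO (19.85 points, adjusted p = 2.68e-05). In K700E it stood at 31.1%, 35.7% and 22.9% with H3B-8800 and 10.7%, 9.58% and 9.18% with DMSO (20.04 points, adjusted p = 7.34e-05). All 6 pairs of samples of the same name were higher with H3B-8800, and the introns on both sides of the 60-nt exon averaged 12.5% and 7.80% in WT with H3B-8800 and 3.88% and 1.66% with DMSO, under 10 points.

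RBM39 had 6 called exons of 8 tested, in both genotypes. The coding exon of 66 nt, named after its values were seen, is shown whole because its skipping was the largest well-covered change of the gene.
RBM39 66-nt exon, chr20:35729462-35729527, minus strand: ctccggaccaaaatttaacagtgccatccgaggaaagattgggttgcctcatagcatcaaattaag
It was included at 47.5%, 45.8% and 43.8% in WT with H3B-8800 and 97.5%, 96.4% and 96.1% with DMSO (-50.97 points, adjusted p = 4.14e-09). K700E samples stood at 55.0%, 56.6% and 56.2% with H3B-8800 and 98.3%, 98.5% and 98.2% with DMSO (-42.41 points, adjusted p = 3.46e-09). With H3B-8800 the K700E samples thus stood 10.26 points above the WT samples with no overlap, but the test on the log odds gave an adjusted p of 0.304, and a test on percentage points gave 6e-05. In DMSO the K700E samples also stood above all WT samples, by 1.70 points (adjusted p = 0.0216 on the log odds). The log2 odds differed by 1.02 in DMSO and 0.59 with H3B-8800. The difference of the 2 effects was 8.56 points, with an adjusted p of 0.828 on the log odds and 0.00755 in a test on percentage points. Its neighbour of 54 nt averaged 83.3% in WT with H3B-8800 and 99.4% with DMSO, and 82.8% in K700E with H3B-8800 and 99.5% with DMSO.

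The second intron of RBM39 holds poison exons, which are printed up to their stop codons, in capitals, because inclusion of a stop is what defines them. Both are annotated in transcripts of nonsense-mediated decay (GENCODE v29, hg38, minus strand), and the first is 73 nt long in the deposited event.
RBM39 73-nt exon, chr20:35740526-35740597: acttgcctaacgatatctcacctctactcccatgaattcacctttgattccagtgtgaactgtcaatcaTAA
RBM39 155-nt exon, chr20:35739410-35739547: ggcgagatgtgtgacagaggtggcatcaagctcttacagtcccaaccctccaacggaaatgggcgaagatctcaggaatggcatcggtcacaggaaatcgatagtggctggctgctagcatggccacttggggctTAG
Inclusion of the 73-nt exon was 26.9%, 29.2% and 52.8% in WT with H3B-8800 and 98.6%, 100% and 100% with DMSO (-63.23 points, adjusted p = 1.57e-06), and 41.7%, 42.1% and 38.9% in K700E with H3B-8800 and 98.96%, 97.6% and 98.98% with DMSO (-57.61 points, adjusted p = 3.43e-05). These levels are set against reads joined to the other exons of the intron, not against all RBM39 transcripts, and rest on 59 to 913 reads a sample. On the same footing the 155-nt exon rose, at 40.8%, 32.1% and 24.8% in WT with H3B-8800 and 6.63%, 6.52% and 5.84% with DMSO (26.21 points, adjusted p = 1.92e-05). In K700E it stood at 42.6%, 29.4% and 40.7% with H3B-8800 and 9.88%, 8.33% and 13.3% with DMSO (27.08 points, adjusted p = 8.15e-05). Reads behind these levels numbered 127 to 144 in WT with H3B-8800 and 474 to 578 with DMSO. In K700E they numbered 203 to 260 with H3B-8800 and 715 to 879 with DMSO. The rise is thus in a share of fewer reads, and a level against the direct join of exons 2 and 3 was not computed. By this share, the 155-nt exon was the only exon of the 8 genes called higher with H3B-8800 in either genotype.

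Counts of junction reads show the same intron against the direct join of exons 2 and 3; they were chosen after the values were seen and carry no test. Reads from the 73-nt exon to a later exon numbered 45, 45 and 47 in WT with H3B-8800 and 556, 483 and 472 with DMSO, and 106, 129 and 97 in K700E with H3B-8800 and 813, 714 and 660 with DMSO. Reads from exon 2 into the 73-nt exon were fewer, at 4, 6 and 6 in WT with H3B-8800 and 52, 58 and 68 with DMSO, and 9, 15 and 14 in K700E with H3B-8800 and 99, 84 and 91 with DMSO. Both ends of the poison exon therefore had fewer reads with H3B-8800 in every pair, although the 2 ends differed widely in reads. Reads joining exon 2 directly to exon 3 numbered 2573, 2638 and 2722 in WT with H3B-8800 and 613, 690 and 673 with DMSO, a ratio of 4.01. In K700E they numbered 2553, 2267 and 2703 with H3B-8800 and 564, 509 and 650 with DMSO, a ratio of 4.37. As a share of entering and direct reads, entry into the poison exon was 0.201% ± 0.040 in WT with H3B-8800 and 8.25% ± 0.803 with DMSO, and 0.508% ± 0.153 in K700E with H3B-8800 and 13.8% ± 1.36 with DMSO (SD, n = 3). The share from leaving and direct reads was higher, at 1.70% ± 0.021 in WT with H3B-8800 and 43.3% ± 3.67 with DMSO, and 4.28% ± 0.993 in K700E with H3B-8800 and 55.9% ± 4.82 with DMSO.

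**Figure D3:**
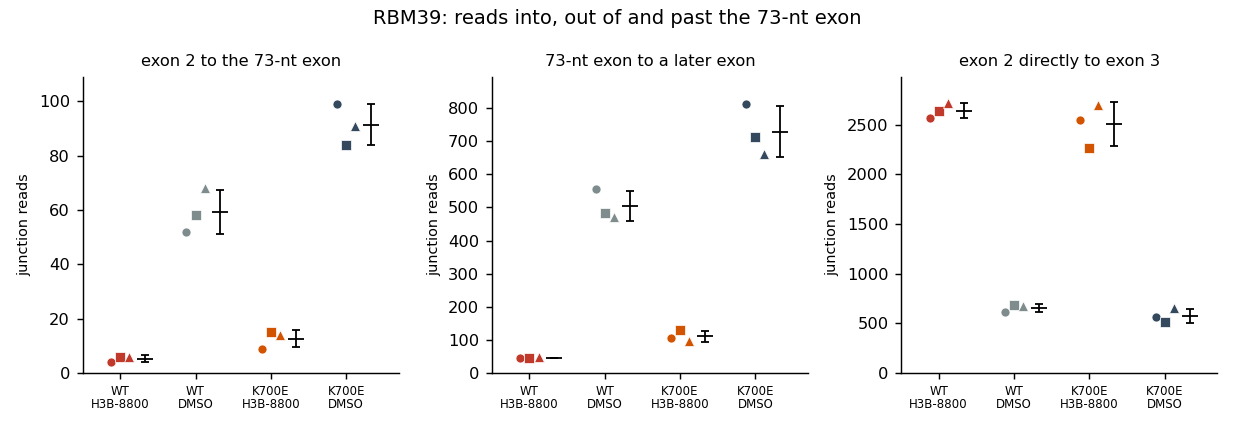
RBM39 junction reads (y axis, from 0) from exon 2 to the 73-nt poison exon, from that exon to a later exon, and from exon 2 directly to exon 3, in the 4 groups; points are replicates and the dash and bar are the mean and SD. Reads of the poison exon were fewer and direct reads were more numerous with H3B-8800 in both genotypes.

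The other RBM39 calls were thinner. A 72-nt exon of decay transcripts averaged 37.9% in WT with H3B-8800 and 97.5% with DMSO, and 49.1% in K700E with H3B-8800 and 95.9% with DMSO. These levels rest on 35 to 209 reads, beside 1740 to 4281 for the 66-nt exon, and are not shares of all RBM39 transcripts. The 50-nt exon 3 averaged 83.3% in WT with H3B-8800 and 99.7% with DMSO, and 71.8% in K700E with H3B-8800 and 98.2% with DMSO, on 69 to 897 reads, and was lower in 5 of 6 pairs. In WT with H3B-8800 its level rests on 69 to 83 reads, beside 2573 to 2722 joining exon 2 directly to exon 3. It therefore does not describe all RBM39 transcripts. None of 4 RBM39 introns tested was called, and the intron of 2413 nt, not tested because the reads of its ends were unbalanced in all 12 samples, stood at 28.0%, 27% and 26.7% in WT with H3B-8800 and 5.58%, 4.72% and 4.45% with DMSO. The untested second intron of RBM39, of 1806 nt, which holds the poison exons described above, went the other way. It stood at 2.27%, 2.62% and 2.72% in WT with H3B-8800 and 9.53%, 9.77% and 13.04% with DMSO. Its spliced reads rose the most of the 16 RBM39 introns (log2 2.13 in WT, 2.30 in K700E). Of the 15 untested introns of the 8 genes, 8 were lower and 5 higher with H3B-8800 in all 6 pairs, and 2 were mixed.

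TRA2B had 1 call of 7 events. Its coding exon of 134 nt (chr3:185926601-185926734, minus strand) is shown with the start of the 276-nt poison exon (chr3:185931772-185931852 printed), whose annotated stop codon is in capitals, because one exon encodes protein and the other ends the reading frame.
TRA2B 134-nt exon: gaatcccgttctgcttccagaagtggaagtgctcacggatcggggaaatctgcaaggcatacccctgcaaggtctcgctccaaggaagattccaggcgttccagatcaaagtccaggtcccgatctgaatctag
TRA2B 276-nt exon, first 81 nt: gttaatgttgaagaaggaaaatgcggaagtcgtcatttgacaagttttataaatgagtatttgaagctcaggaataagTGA
The coding exon was included at 80.05%, 81.4% and 81.6% in WT with H3B-8800 and 94.9%, 96.0% and 95.7% with DMSO (-14.47 points, adjusted p = 2.74e-07). K700E samples stood at 82.3%, 81.4% and 79.95% with H3B-8800 and 96.6%, 95.9% and 95.0% with DMSO (-14.62 points, adjusted p = 2.26e-07). No sample overlapped, on at least 6941 reads each. The poison exon stood at 5.24%, 5.70% and 5.47% in WT with H3B-8800 and 10.1%, 10.2% and 7.90% with DMSO, and at 4.90%, 5.61% and 4.22% in K700E with H3B-8800 and 11.2%, 9.36% and 8.42% with DMSO. Its differences of -3.95 and -4.75 points had adjusted p-values of 0.00201 and 0.000406 but were under 10 points, so it was not called.

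TRA2A had no call among 10 events. Its 79-nt exon of decay transcripts (chr7:23522354-23522432) stood at 9.31%, 11.6% and 12.8% in WT with H3B-8800 and 18.5%, 19.3% and 17.21% with DMSO, and at 15.2%, 17.4% and 17.0% in K700E with H3B-8800 and 22.6%, 23.4% and 22.2% with DMSO. The groups did not overlap, and the differences of -7.10 points (adjusted p = 0.00178) and -6.21 points (adjusted p = 0.0176) were under the size threshold. The largest TRA2A difference was in an intron that was not tested, because the reads of its 2 ends were unbalanced in 10 samples. It is shown with its first and last 2 bases in capitals.
TRA2A 176-nt intron, chr7:23505570-23505745, minus strand: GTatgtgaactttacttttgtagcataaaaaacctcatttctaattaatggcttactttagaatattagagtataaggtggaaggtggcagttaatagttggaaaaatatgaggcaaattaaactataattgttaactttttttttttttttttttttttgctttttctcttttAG
Its retention stood at 48.3%, 51.3% and 49.5% in WT with H3B-8800 and 0.75%, 1.88% and 1.56% with DMSO, and at 55.9%, 50.5% and 41.6% in K700E with H3B-8800 and 2.03%, 2.42% and 1.41% with DMSO. The other untested TRA2A introns were lower with H3B-8800 in all 6 pairs: the 9948-nt intron averaged 3.25% in WT with H3B-8800 and 6.92% with DMSO, and the 1153-nt intron 6.27% with H3B-8800 and 8.66% with DMSO.

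SRRM1 had 1 call, in WT. An 84-nt exon (chr1:24661313-24661396), annotated with these exact bounds in noncoding transcripts only, stood at 86.4%, 87.7% and 86.9% in WT with H3B-8800 and 99.05%, 98.5% and 99.5% with DMSO (-11.97 points, adjusted p = 1.62e-05). In K700E it stood at 92.4%, 93.5% and 92.4% with H3B-8800 and 99.6%, 99.9% and 99.2% with DMSO, a difference of -6.75 points (adjusted p = 9.4e-06) that was under 10 points. The difference between the genotypes was not called. A 3′ site just upstream of the start of this exon, at chr1:24661310, had a share of 81.1% in WT with DMSO and 82.2% in K700E with DMSO. The noncoding label goes by exact bounds and does not cover the exon with that start.

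SON had no call among 3 events. Its 80-nt exon of decay transcripts (chr21:33572551-33572630) stood at 0.07%, 0.09% and 0.08% in WT with H3B-8800 and 4.08%, 5.33% and 5.04% with DMSO. K700E samples stood at 0.20%, 0.16% and 0.31% with H3B-8800 and 11.05%, 11.96% and 7.07% with DMSO. It was nearly absent from every treated sample, on at least 1788 reads each, and its differences of -4.74 points (adjusted p = 1.32e-08) and -9.80 points (adjusted p = 2.02e-08) were under 10. Without K700E DMSO replicate 3 the K700E difference was -11.28 points and was called. In DMSO the K700E samples stood above all WT samples, by 5.21 points (adjusted p = 0.0768). With H3B-8800 the K700E samples again stood above all WT samples, by 0.14 points. The log2 odds there differed by 1.34 (adjusted p = 0.0409), under the size threshold of 10 points.

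**Figure D4:**
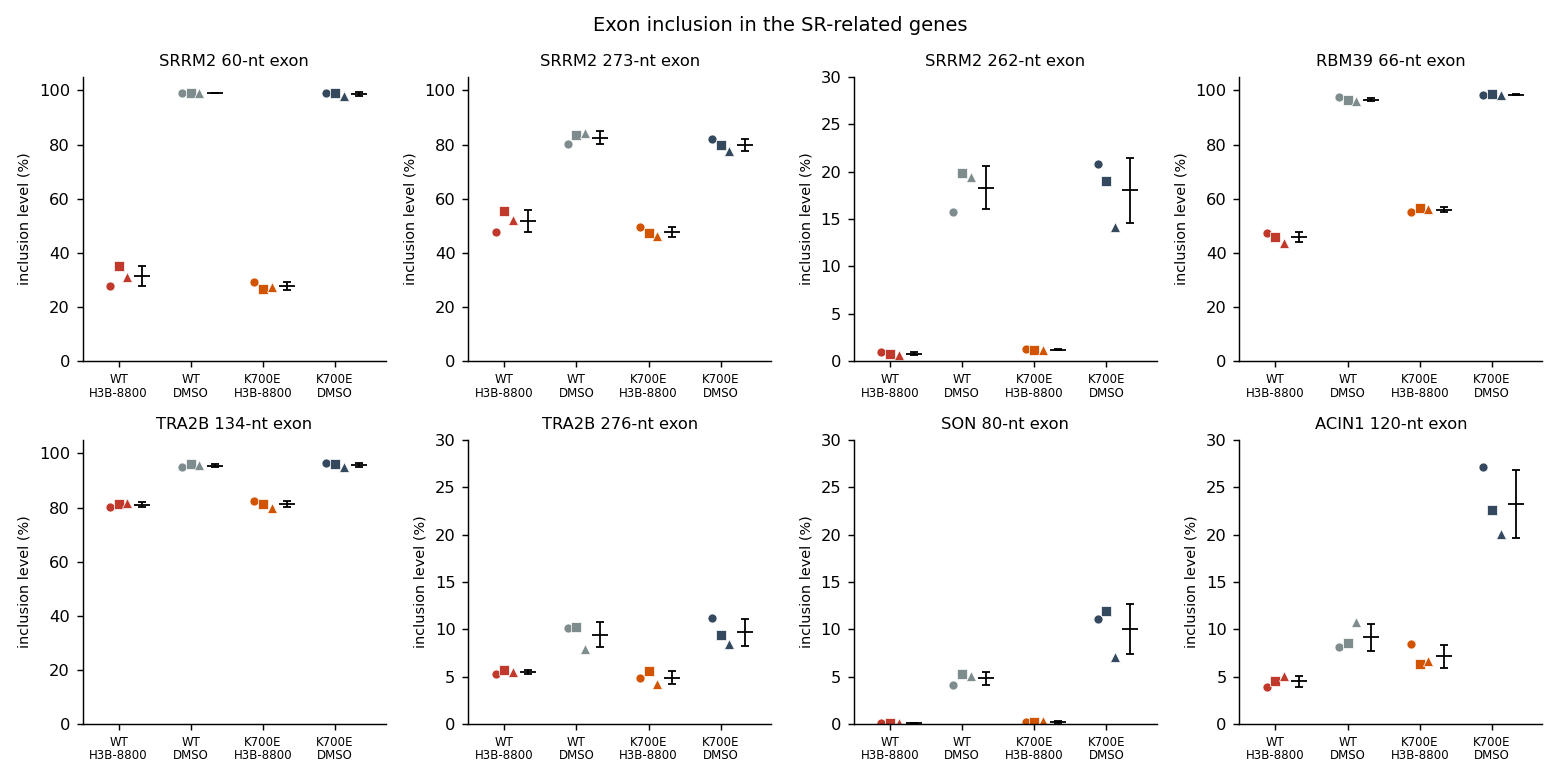
Inclusion level (percent, y axis from 0; panels of low exons end at 30) of 8 exons of SRRM2, RBM39, TRA2B, SON and ACIN1 in the 4 groups; points are replicates and the dash and bar are the mean and SD. H3B-8800 samples lie below DMSO samples of the same genotype in each panel, and the ACIN1 120-nt exon is highest in K700E with DMSO.

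ACIN1 held the one event of the 8 genes called between genotypes. Its coding exon of 120 nt is shown whole.
ACIN1 120-nt exon, chr14:23089982-23090101, minus strand: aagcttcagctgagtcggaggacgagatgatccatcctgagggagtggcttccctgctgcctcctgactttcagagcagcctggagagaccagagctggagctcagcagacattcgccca
In DMSO it was included at 27.1%, 22.6% and 20.03% in K700E and at 8.16%, 8.54% and 10.7% in WT, a difference of 14.11 points (adjusted p = 0.0055, higher in 3 of 3 K700E clones), among 0.358% of all events called for this comparison. Fitted to those 6 samples alone, the adjusted p was 0.0765. With H3B-8800 it stood at 8.48%, 6.31% and 6.61% in K700E and at 3.89%, 4.56% and 5.07% in WT. The exon fell with H3B-8800 by 16.12 points in K700E (adjusted p = 2.26e-05) and differed by -4.64 points in WT (adjusted p = 0.00214), under 10 points. The difference of the 2 effects was -11.48 points, with an adjusted p of 0.637 on the log odds and 0.0375 in a test on percentage points.

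Of the other ACIN1 exons, the 108-nt coding exon stood at 87.9%, 90.3% and 91.7% in WT with H3B-8800 and at 100% in all 3 DMSO samples (-10.03 points, adjusted p = 1.72e-09); it was under 10 points without WT H3B-8800 replicate 1 (-9.02). In K700E it stood at 91.4%, 88.3% and 87.5% with H3B-8800 and 100% in each DMSO sample (-10.93 points). A 43-nt coding exon averaged 91.4% in WT with H3B-8800 and 99.7% with DMSO, and 85.7% in K700E with H3B-8800 and 99.4% with DMSO, and was called in K700E alone (adjusted p = 4.68e-07); the difference between the genotypes was not called. The partly coding 62-nt exon averaged 7.24% in WT with H3B-8800 and 13.0% with DMSO, and 8.52% in K700E with H3B-8800 and 11.4% with DMSO, and was not called.

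Most called introns of the 8 genes were in ACIN1. Of its 9 tested introns, 3 were called in WT and 4 in K700E, beside 32% and 31.6% of all tested introns called higher. The ACIN1 intron with the largest difference is a 97-nt coding intron, shown with its first and last 2 bases in capitals.
ACIN1 97-nt intron, chr14:23064258-23064354, minus strand: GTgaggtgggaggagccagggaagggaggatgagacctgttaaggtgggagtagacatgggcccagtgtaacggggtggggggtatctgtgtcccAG
It was retained at 29.9%, 33.6% and 38.5% in WT with H3B-8800 and 1.99%, 2.55% and 2.88% with DMSO (31.52 points, adjusted p = 7.57e-08). In K700E the levels were 39.1%, 36.9% and 34.6% with H3B-8800 and 1.75%, 2.42% and 3.21% with DMSO (34.41 points, adjusted p = 6.43e-08). The next introns upstream also rose, with smaller differences: the 1477-nt intron averaged 26.4% in WT with H3B-8800 and 3.89% with DMSO, and 23.7% in K700E with H3B-8800 and 5.89% with DMSO. The 3467-nt intron averaged 36.8% in WT with H3B-8800 and 10.1% with DMSO, and 33.1% in K700E with H3B-8800 and 13.8% with DMSO. An intron of 240 nt in an untranslated part, called in K700E alone (adjusted p = 0.00387), averaged 22.5% in K700E with H3B-8800 and 11.97% with DMSO, and 20.9% in WT with H3B-8800 and 13.8% with DMSO; the call was lost without K700E H3B-8800 replicate 3 (8.02 points) or K700E DMSO replicate 2 (9.78 points).

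An alternative 3′ site of ACIN1, 30 nt long and covered by 13 to 63 reads, stood at 24.6%, 3.68% and 10.3% in WT with H3B-8800 and 34%, 46.9% and 31.4% with DMSO, and at 24.4%, 19.2% and 9.94% in K700E with H3B-8800 and 49.7%, 52.0% and 55.7% with DMSO. It fell in both, by a difference of -24.60 points in WT (adjusted p = 0.00894) and -34.63 points in K700E (adjusted p = 0.00601), with wide spread among the treated samples.

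PNN, the partner of RNPS1 and SAP18 at the exon junction, had no call among 9 events. Its 108-nt intron stood at 3.36%, 3.46% and 5.97% in WT with H3B-8800 and 0.20%, 0.29% and 0.33% with DMSO, and at 6.35%, 7.65% and 3.45% in K700E with H3B-8800 and 0.63%, 0.56% and 0.54% with DMSO. The groups did not overlap, and the differences of 3.99 and 5.24 points were under 10. Its coding exons of 95 and 76 nt averaged 94.2% and 96.2% in WT with H3B-8800 and 99.7% and 99.9% with DMSO.

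**Figure D5:**
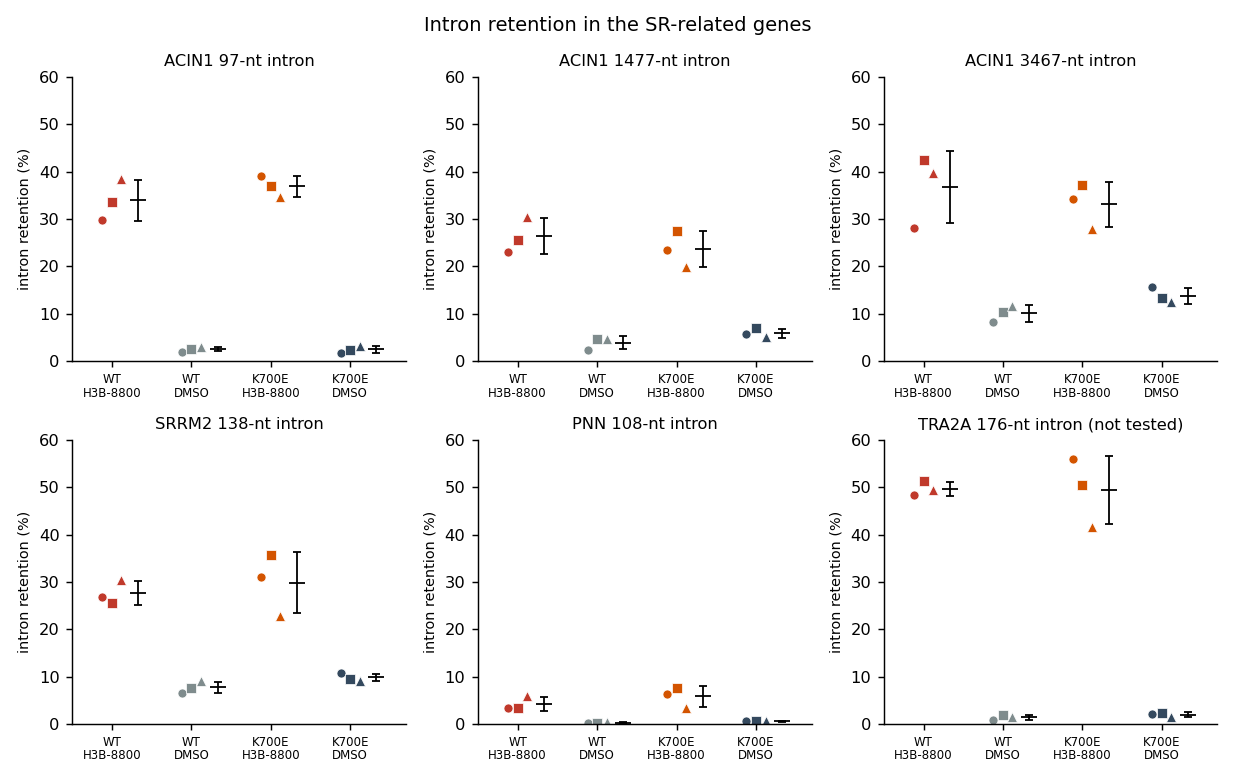
Intron retention (percent, y axis from 0 to 60) of 3 ACIN1 introns and 1 intron each of SRRM2, PNN and TRA2A in the 4 groups; points are replicates and the dash and bar are the mean and SD. Retention is higher with H3B-8800 in both genotypes, and the TRA2A intron was not tested.

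By class of exon, 7 of 18 coding exons (or exons sharing an end with one) fell in WT and 9 of 18 in K700E, beside 39.6% and 38% of tested exons of every class; shares by class were not computed over all genes. Of 8 exons of decay transcripts, 2 fell and 1 rose in each genotype, and 7 of the 8 stood below 0 points in each. Over all 31 exons, 30 stood below 0 points in each genotype, and 27 of 32 introns stood above 0; of all tested exons 91.7% in WT and 91.9% in K700E stood below 0, and of all introns 91.7% and 91.8% above it. Between genotypes in H3B-8800, 0.503% of all events and 0 of the 87 were called, with 11 of the 87 at an unadjusted p under 0.05 (9.58% of all events) and 1 called in the test on percentage points, which called 2.43% of all events. For the interaction, 0.00747% of all events and 0 of the 87 were called, with 6 at an unadjusted p under 0.05 (7.11% of all events) and 1 in the test on percentage points, which called 0.599% of all events.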

How the data were processed

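Poly(A) RNA from 12 samples was sequenced as stranded libraries in 3 paired-end runs each, per the labels' protocols. The submitters' processing notes name cutadapt 2.4 and the hg38 build; the aligner and event tool were not given in the sources used here. Per event, the authors deposited an inclusion level in percent with a text column of read numbers, from which inclusion, exclusion and exon-exon reads were taken; 36 columns of single runs were not used. limma 3.58.1 (R 4.3.3) was fitted to log2 odds of inclusion (0.5 reads added) over 120409 events and 4 groups, and to log2 spliced RPM over 10182 genes with a mean of 50 or more, with Benjamini-Hochberg adjustment over all of them. Events needed 10 reads in each sample and a mean level of 1 to 99%; of the 421 member events, 305 lay outside that range, 14 were reference sites and 15 were introns unbalanced in more than 6 samples. The deposited levels and the read numbers agreed within 1 point. Named events were, per gene and type, the called event with the largest difference, those called between genotypes and exons at 10 to 90% in DMSO, plus some chosen after their values were seen, such as the RBM39 66-nt exon. The members and lists were chosen with earlier results of these data known. The main fits used no replicate block, so their p-values ignore the pairing by name. H3B-8800 and DMSO samples of the same name deviated together (correlations 0.658 to 0.925), so the name served as the block of the drug comparisons in an alternative fit. K700E and WT share only replicate numbers, which served as the block of their comparisons in that fit and join samples of different names. Exon and intron sequences and classes are from GENCODE 29 transcripts.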

Additional observations from a re-analysis of the deposited data

How the results depend on the processing

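Of 1812 alternative values computed for single genes and events, 1762 kept their direction and their side of the threshold, 27 lost a call, 22 gained one and 1 changed sign: ACIN1 spliced reads in WT stood at -0.10 (log2) when the median over introns replaced their sum, and were not called either way. With the replicate block, the calls of member events stayed at 17 in WT and 20 in K700E. They stayed at 1 for K700E against WT in DMSO and 0 for the other comparisons. For spliced reads, 7 of the 8 genes were called in WT and 8 in K700E. TRA2A was called for K700E against WT in H3B-8800 (adjusted p = 0.0259). For K700E against WT the block was the replicate number, which joins samples of different names and is not a pairing by source. Among all 10182 genes the replicate block moved the spliced-read calls in K700E to 7975 (5294 without it) and those for K700E against WT in DMSO to 1021 (495). It moved those for the difference of the effect to 616 (5), and the event calls for that difference to 0 (9). In WT, spliced-read calls of all genes numbered 4662 to 8391 over all alternatives (6042 in the main fit). A size threshold of 5 points gave 31 member events in WT, 34 in K700E and 2 for K700E against WT in DMSO. A threshold of 20 points gave 10, 10 and 0. Over all alternatives, these thresholds included, called events of all genes ranged from 21546 to 54983 in WT and 20579 to 54623 in K700E. The all-gene count at each threshold alone is not given here. For K700E against WT in DMSO the range was 208 to 779. Only the 6 samples of that last comparison gave 0. The test on percentage points gave 1 member event for K700E against WT in H3B-8800 and 1 for the difference of the effect, beside 2929 and 721 events of all genes (606 and 9 on the log odds). Leaving out 1 replicate at a time gave 17 to 18 member events in WT, 20 to 22 in K700E and 1 to 1 between genotypes in DMSO, and 6 to 7 genes in WT and 5 to 6 in K700E for spliced reads, and 0 to 1 for K700E against WT in H3B-8800, where the median of ratios scaling gave 4 and the median over introns 1; calls over all genes there numbered 697 to 1791 (1448 with all libraries) and 302 with its 6 samples alone. Over the other alternative fits, calls of all genes for K700E against WT in H3B-8800 numbered 302 to 2149. The ACIN1 30-nt site rests on 13 to 63 reads.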
